A study of Homo sapiens with 10 samples.

Results

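Pleiotrophin (PTN) and midkine (MDK) are the 2 members of a small family of secreted, heparin-binding growth factors, and 8 further genes encode the cell-surface proteins most often described as their receptors. These 10 genes were followed in RNA sequencing of cells derived from the human embryonic stem cell line H9, and all 10 were found by symbol among 64940 genes. The family was chosen by 1 measured value, the adjusted p of PTN between oeDAZL and control, so the difference in PTN is given here as a description, and the other 9 genes were added for their known role. The table holds 2 control libraries, labelled as wild-type H9 cells after spontaneous differentiation (SD cells), and 2 oeDAZL libraries, labelled as H9-derived human primordial germ cell-like cells (hPGCLCs) that overexpress DAZL, a germ cell RNA-binding protein. The study's methods differentiate such cells with BMP4 and BMP8a, transduce them with a DAZL or control lentivirus and sort them at day 6. They describe the control as a matched culture and the labels do not, so an effect of DAZL and one of the culture cannot be told apart.

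Pleiotrophin and midkine bind the sulfated sugar chains of proteoglycans and, through them or directly, a mixed group of surface proteins. PTPRZ1 is a receptor tyrosine phosphatase that pleiotrophin inactivates, ALK is a receptor tyrosine kinase, LRP1 is a large endocytic receptor, and nucleolin (NCL) is a nucleolar protein of which a part reaches the cell surface. The syndecans SDC1 to SDC4 are transmembrane proteins that carry heparan sulfate, and SDC3 (N-syndecan) is a known pleiotrophin receptor. Midkine is abundant in the early embryo and in many tumors, and pleiotrophin is known for its expression in developing nervous tissue and mesenchyme.

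Values are TPM, transcript abundances corrected for length that add up to the same total in every library, so levels can be set side by side between genes. DAZL was listed at 0 and 0.0333 TPM in control and at 102 and 101 TPM in oeDAZL. Mitochondrial transcripts took 12.6% to 14.1% of the TPM across the 4 libraries. Of the defining germ cell genes, NANOS3 was between 0.732 and 1.66 TPM, DPPA3 between 0.716 and 2.17 TPM and SOX17 between 2.52 and 3.35 TPM in the 4 libraries, and DDX4 was listed at 0 in all of them. Other genes of the same list were higher, with TFAP2C between 44.3 and 53.9 TPM, PDPN between 32.9 and 58.5 TPM, and CXCR4 and KIT between 6.23 and 10.1 TPM. The amnion and trophoblast genes GABRP (1208 to 1408 TPM) and HAND1 (958 to 1250 TPM) were above all of these in both groups. IGFBP3, KRT7, VTCN1, TFAP2A and GATA3 of that list were also above TFAP2C and PDPN in every library. ISL1 (45.4 to 80.5 TPM) overlapped with both, and CGA (4.34 to 15.5 TPM) and CGB5 (1.97 TPM or less) lay below both. The name hPGCLC is used here only as the label.

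The study concerns DAZL and microRNAs (miRNAs). Mature sequences of some miRNAs that its text reports as raised by DAZL overexpression were taken from RefSeq (GRCh38.p14). They served to ask whether the transcripts of the 10 genes carry sites for these miRNAs. The 6 sequences are printed 5′ to 3′ with the seed, bases 2 to 8, in capitals, and no 2 of them share a seed. The sequence of let-7a-5p stands for the let-7 miRNAs with its seed, and miR-10b-5p was not searched.
let-7a-5p: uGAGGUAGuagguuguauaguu
miR-21-5p: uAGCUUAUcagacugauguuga
miR-22-3p: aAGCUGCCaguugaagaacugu
miR-125b-5p: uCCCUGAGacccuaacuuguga
miR-199a-3p: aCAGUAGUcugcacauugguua
miR-199a-5p: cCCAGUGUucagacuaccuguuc

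The 3′UTR of the canonical GENCODE 44 transcript of each gene was searched on its own strand for 8mers (the complement of the seed followed by A) and for the 2 kinds of 7mer, which lack either that A or the match to base 8. The 8mers were CTACCTCA for let-7, ATAAGCTA for miR-21, GGCAGCTA for miR-22, CTCAGGGA for miR-125b, ACTACTGA for miR-199a-3p and ACACTGGA for miR-199a-5p. The 3′UTRs of PTN (679 bases) and MDK (307 bases) held none of these sites, and neither did those of ALK, SDC3 and SDC4. How many 3′UTRs of similar length hold none was not counted, so this absence cannot be called particular to these genes. No let-7 site of any kind was found in the 10 genes, against 15.8% of 19536 genes with a 3′UTR, a share not matched for length. PTPRZ1 and SDC2 held an 8mer for miR-199a-3p, which 2.40% of all 3′UTRs hold, and SDC2 also held a 7mer for it. LRP1, NCL and SDC1 held 7mers for miR-125b-5p, found as a 7mer or 8mer in 22.0% of all 3′UTRs, and NCL also held 1 for miR-21-5p, against 12.6%, and 1 for miR-199a-5p, against 19.8%. The sites below are printed in capitals with their neighbouring bases, on the strand of the gene in hg38.
PTPRZ1, miR-199a-3p, chr7:122061772-122061779, plus strand: tttatattttACTACTGAgtcaagtttt
LRP1, miR-125b-5p, chr12:57212777-57212783, plus strand: catgctgcctTCAGGGAgacaggcagg
NCL, miR-21-5p, chr2:231453840-231453846, minus strand: tgatacttggATAAGCTtagaaggaaa
NCL, miR-125b-5p, chr2:231454441-231454447, minus strand: aggaagagctTCAGGGAagagcagtgg
NCL, miR-199a-5p, chr2:231454705-231454711, minus strand: cctggaatgtCACTGGAgagcatggca
SDC1, miR-125b-5p, chr2:20201892-20201898, minus strand: tgtccatgcgCTCAGGGccatgctgag
These matches describe the letters of the annotated 3′UTRs only, and no binding was measured here. Among 3′UTRs of similar length, 7.68% held a 7mer or 8mer for miR-199a-3p in the case of PTPRZ1 and 19.6% in that of SDC2, and 14.5%, 25.6% and 30.3% held a site for miR-125b-5p in the cases of LRP1, NCL and SDC1. For NCL the shares were 12.2% for miR-21-5p and 23.1% for miR-199a-5p.

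The 10 genes differed widely in level. MDK averaged 1691 ± 219 TPM (SD, n = 2) in control and ranked 68 by mean TPM among all genes with a mean of at least 1 TPM, whereas PTN ranked 2181. NCL followed MDK with 466 ± 15.1 TPM (SD, n = 2) in control. SDC4 and LRP1 came next and could not be placed in order in control, where their values overlapped (197 and 204 TPM against 203 and 194 TPM). In the oeDAZL libraries these 2 genes did not overlap, with SDC4 at 250 and 252 TPM and LRP1 at 162 and 172 TPM. PTN lay above SDC2 in both control libraries and below it in both oeDAZL libraries. SDC3 and SDC1 followed without overlap in either group. The signalling receptors PTPRZ1 and ALK were the lowest of the 10, at 1.90 ± 0.379 and 1.16 ± 0.0974 TPM (SD, n = 2) in control.

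**Figure D1:**
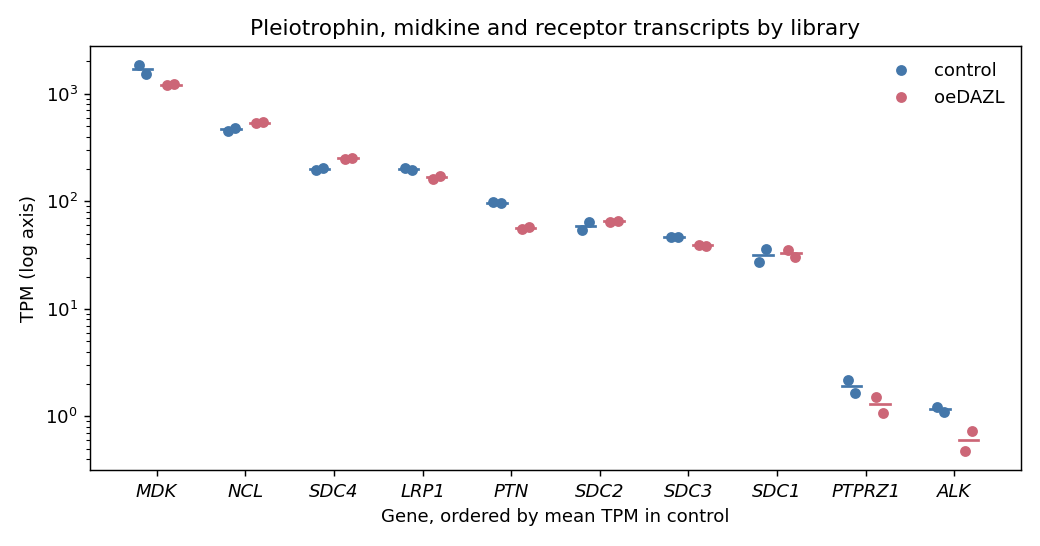
TPM on a log axis of the 10 genes in 2 control (blue) and 2 oeDAZL (red) libraries, with a point for each library and a line at each group mean. MDK is the highest gene in every library and ALK the lowest, and PTN moves from above SDC2 in control to below it in oeDAZL.

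The comparison of oeDAZL with control asks which transcripts differ when DAZL is overexpressed. Of the 10 genes, 9 had a mean TPM of at least 1 and were tested among 16687 genes with limma on log2(TPM + 1), a scale that understates changes of low genes, and ALK lay under this minimum. None of the 9 reached a 2-fold change with an unadjusted P-value of at most 0.05 in limma. This call was made for 0.689% of all tested genes (0.126% higher and 0.563% lower in oeDAZL). Both cut-offs are the study's, which applied them in DESeq2, so its calls can differ from these. An adjusted p under 0.05 (Benjamini-Hochberg over all tested genes) was found for PTN, through which the family was chosen, and for 0 of the other 8, against 0.0599% of all tested genes (0.024% higher and 0.036% lower). At an unadjusted P-value under 0.05 in limma, 3 of these 8 were lower (MDK, LRP1 and SDC3) and 2 were higher (SDC4 and NCL), against 15.2% and 5.02% of all tested genes. PTN aside, the 2 groups did not overlap for 7 of these 8 genes (4 lower and 3 higher), against 54.4% of all tested genes, 38.4% lower and 16.0% higher. The median log2 fold change was −0.10 over the 8 genes, near the −0.08 of all tested genes. With 2 libraries against 2, an exact permutation test of 1 gene cannot give a two-sided p under 0.333, and none was run. The labels do not say that the libraries of a group came from separate cultures, so the P-values measure only the spread between libraries, which may be technical.

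**Figure D2:**
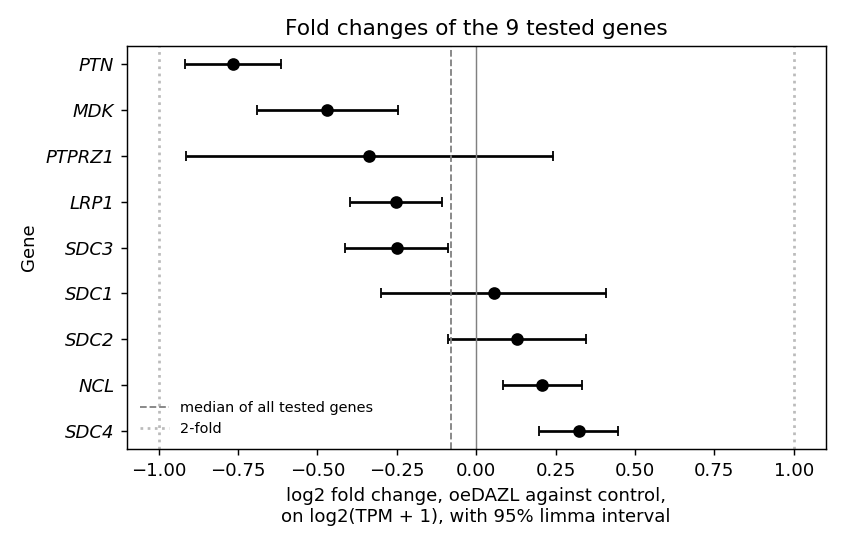
Log2 fold change of oeDAZL against control for the 9 tested genes, as points with the 95% interval from limma. The dashed line marks the median of all tested genes at −0.08 and the dotted lines mark 2-fold. PTN and MDK lie lowest, SDC4 and NCL highest, and the intervals of PTPRZ1, SDC1 and SDC2 include 0.

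Pleiotrophin is encoded on the minus strand of chromosome 7 of hg38, from 137227341 to 137343774. PTN was at 98.6 and 95.6 TPM in control and at 55.4 and 58.1 TPM in oeDAZL. Both oeDAZL values thus lay well below both control values, and the libraries of each group differed by little. The mean in oeDAZL was 0.585 times that in control, and the log2 fold change was −0.76 ± 0.06 (SE). Its adjusted p of 0.0390 in limma is the value for which PTN was noticed, and it ranked 6 among all tested genes by P-value. By size of the fall on the log2 scale PTN ranked 341. The adjusted p values nearest to 0.05 over all tested genes were 0.0444 for HPGD, just inside, and 0.0594 for PRAP1, just outside. Over 13 alternative analyses the log2 fold change of PTN stayed between −0.80 and −0.66. Its adjusted p in limma was above 0.05 in 8 of them. It ranged from 0.00295, in a crossed pairing of replicates added after the data were seen, to 0.322. It was 0.138 without control replicate 1, 0.131 without oeDAZL replicate 1 and 0.0890 without oeDAZL replicate 2, and 0.0352 without control replicate 2. In these bulk samples, fewer cells that express a gene and less RNA per cell cannot be told apart.

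Of 12 mesenchymal marker genes, all of them tested, COL3A1 and DCN were called lower (0.563% of all tested genes) and 0 were called higher, 7 were lower at an unadjusted P-value under 0.05 in limma (15.2% of all tested genes), and COL3A1 was also under an adjusted p of 0.05 in limma. Their summed level was 4493 and 4769 TPM in control and 4000 and 3946 TPM in oeDAZL, and VIM, COL1A2 and COL5A1 were at 498 TPM or above in every library. The summed level of the neural markers was 439 and 580 TPM in control and 691 and 637 TPM in oeDAZL, of which NES and TUBB3 made up most. The called neural marker, PAX6, was lower, at 3.83 and 1.14 TPM in control and at 0.0967 and 0.558 TPM in oeDAZL. The neural regulators SOX1 and NEUROG2 were under 1 TPM in every library. The part of these markers in the result for PTN was not tested.

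The genes most like PTN were sought by the root mean square distance between profiles of log2(TPM + 1) over the 4 libraries, each centred on its own mean. Among the 5 nearest were SCCPDH (distance 0.0099), NID2 (0.0277), AC084125.2 (0.032) and FAM86GP (0.033). NID2, which encodes the basement membrane protein nidogen-2, was at 74.7 and 69.5 TPM in control and at 40.1 and 41.8 TPM in oeDAZL. SCCPDH was at 17.7 and 17.1 TPM in control and at 9.64 and 9.94 TPM in oeDAZL. This likeness rests on 4 libraries and on the same comparison, and is given as a description.

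**Figure D3:**
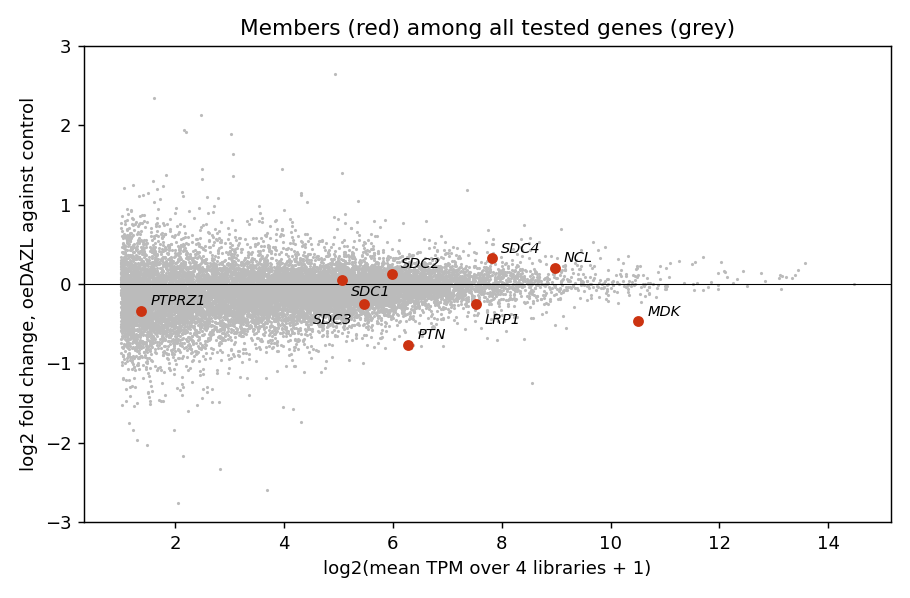
Log2 fold change of oeDAZL against control by log2(mean TPM + 1) for all 16687 tested genes (grey) and the 9 tested genes of the family (red, named). The vertical axis ends at 3 in both directions, which leaves out 2 genes. PTN lies lowest of the named genes and SDC4 highest, and no ranking among genes of like level was made.

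Midkine is encoded on the plus strand of chromosome 11 from 46380756 to 46383837. MDK was at 1846 and 1536 TPM in control, and the oeDAZL libraries had 1198 and 1236 TPM. Both oeDAZL libraries lay below both control libraries, and the control libraries were farther apart from each other than the oeDAZL libraries. The oeDAZL mean was 0.720 times the control mean, with a log2 fold change of −0.47 ± 0.09 (SE) and an adjusted p = 0.0962 in limma. The value rested in part on control replicate 1, without which the log2 fold change was −0.34 (adjusted p = 0.164 in limma). Without control replicate 2 it was −0.60. With all 4 libraries, the adjusted p of MDK in limma was highest without a filter on TPM (0.339). It was lowest (0.0116) in a crossed pairing of replicates that was added after the data were seen. The exons of MDK share 49 bases with CHRM4 on the other strand, which was at 0.688 TPM or less in the 4 libraries.

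Together the 2 ligands made up 1945 and 1632 TPM in control and 1253 and 1294 TPM in oeDAZL. Midkine transcripts outnumbered those of pleiotrophin in every library. The ratio of MDK to PTN, which does not depend on how libraries are scaled, was 18.7 and 16.1 in control and 21.6 and 21.3 in oeDAZL. PTN thus supplied 5.07% and 5.86% of the ligand TPM in control and 4.42% and 4.49% in oeDAZL, without overlap. Both the ratio and the share contain the PTN values through which the family was chosen. Their separation is therefore a description and adds no support to the difference in PTN.

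Among the signalling receptors, PTPRZ1 (chromosome 7, 121873089 to 122062036, plus strand) was at 2.17 and 1.63 TPM in control and at 1.52 and 1.08 TPM in oeDAZL. The groups did not overlap, but the gap between them was smaller than the spread within either group. Its log2 fold change of −0.34 ± 0.24 (SE) had an adjusted p = 0.465 in limma, and its 95% interval ran from −0.91 to 0.24. ALK (chromosome 2, 29192774 to 29921586, minus strand) was at 1.23 and 1.09 TPM in control and at 0.477 and 0.734 TPM in oeDAZL. Both oeDAZL libraries lay below both control libraries, with a mean of 0.605 against 1.16 TPM. ALK could be tested only without the filter on TPM, where its log2 fold change was −0.43 with an adjusted p = 0.444 in limma over 33251 genes. The exons of ALK overlap those of CLIP4 on the other strand by 135 bases, and CLIP4 was at 1.88 and 2.28 TPM in control and at 1.34 and 1.02 TPM in oeDAZL. Whether the counting used strand is not given in the sources used here, so reads in the shared bases cannot be assigned.

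LRP1, the endocytic receptor, lies on the plus strand of chromosome 12 from 57128483 to 57213361. It was at 203 and 194 TPM in control and at 162 and 172 TPM in oeDAZL. All values of oeDAZL were below those of control, and the oeDAZL mean was 0.839 times the control mean. The log2 fold change was −0.25 ± 0.06 (SE), with an adjusted p = 0.116 in limma. LRP1 shares 59 exonic bases with STAT6 on the other strand, which was at 68.3 and 59.1 TPM in control and at 45.1 and 43.9 TPM in oeDAZL, and the part of these bases in the result was not tested.

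Nucleolin was the most abundant receptor gene in the list. NCL (chromosome 2, 231453531 to 231483641, minus strand) was at 456 and 477 TPM in control and at 536 and 542 TPM in oeDAZL. Both oeDAZL libraries were above both control libraries, and the oeDAZL mean was 1.16 times the control mean. Its log2 fold change was 0.21 ± 0.05 (SE), with an adjusted p = 0.125 in limma. Its pseudogene NCLP1 was at 0.409 to 1.17 TPM, so that little signal was listed for this copy, and NCLP2 was listed at 0 in the 4 libraries. The exons of NCL share 137 bases with SNORA75 (4.59 TPM or less) and 80 with SNORD20 (2.81 TPM or less), both on the same strand. The part of these bases in the result was not tested.

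The syndecans had log2 fold changes of either sign, and none of the 4 had an adjusted p under 0.05 in limma. SDC4 (chromosome 20, 45325288 to 45348424, minus strand) was at 197 and 204 TPM in control and at 250 and 252 TPM in oeDAZL. Its libraries were close together within each group and far apart between groups. The oeDAZL mean was 1.25 times the control mean, with a log2 fold change of 0.32 ± 0.05 (SE) and an adjusted p = 0.0896 in limma. Without control replicate 2 the adjusted p in limma was 0.0417, and over the 13 alternatives it ranged from 0.0185 to 0.379. SDC3 (chromosome 1, 30869466 to 30908758, minus strand) was at 47.1 and 46.6 TPM in control and at 39.6 and 38.8 TPM in oeDAZL. Both oeDAZL values were lower, at 0.837 times the control mean, and the log2 fold change was −0.25 ± 0.07 (SE) with an adjusted p = 0.138 in limma.

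SDC2 was at 54.7 and 64.4 TPM in control and at 64.6 and 65.4 TPM in oeDAZL. Control replicate 2 lay just under the oeDAZL values and control replicate 1 well under them. Its log2 fold change of 0.13 ± 0.09 (SE) had an adjusted p = 0.456 in limma. SDC1 (chromosome 2, 20200797 to 20225433, minus strand) was at 27.3 and 36.3 TPM in control and at 35.2 and 30.5 TPM in oeDAZL. It was the one tested gene of the family whose groups overlapped. Its log2 fold change of 0.06 ± 0.15 (SE) had an adjusted p = 0.859 in limma and a 95% interval from −0.30 to 0.41, and it became −0.14 without control replicate 1 and −0.04 without oeDAZL replicate 1.

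Summed over the 4 genes, syndecan transcripts came to 326 and 351 TPM in control and to 389 and 387 TPM in oeDAZL. SDC4 supplied 60.4% and 58.0% of this sum in control and 64.2% and 65.2% in oeDAZL. SDC3 supplied 14.4% and 13.3% in control and no more than 10.2% in oeDAZL. The shares of SDC1 and SDC2 overlapped between the groups. The ratio of SDC4 to SDC3 was 4.19 and 4.38 in control and 6.30 and 6.50 in oeDAZL. The ligands stood at 3.65 and 2.98 times the sum of the syndecans, LRP1, ALK and PTPRZ1 in control and at 2.27 and 2.31 times in oeDAZL. These ratios are within a library and do not depend on scaling between libraries.

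**Figure D4:**
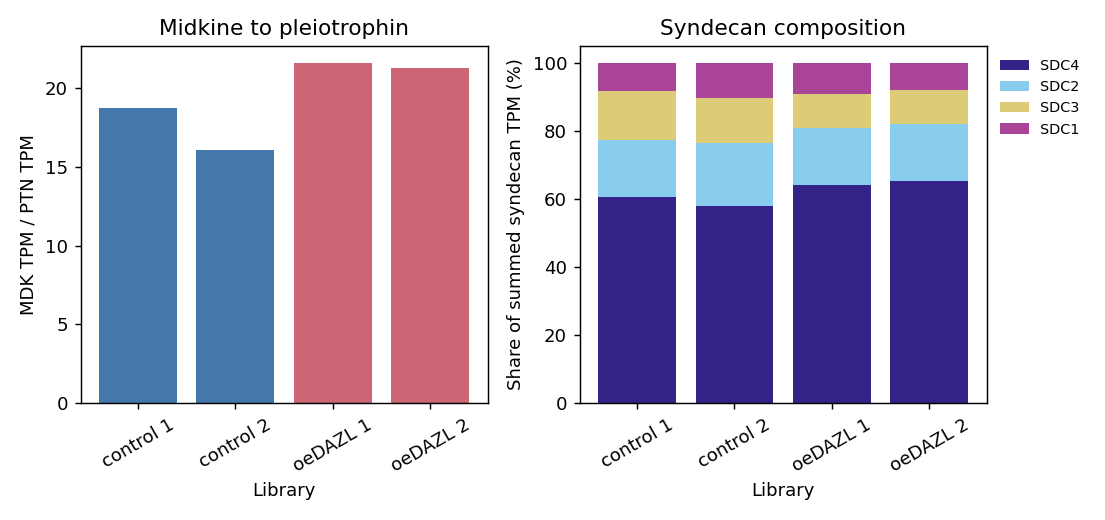
Left, the ratio of MDK to PTN in TPM in each of the 4 libraries, as bars from 0. Right, the share of each syndecan in the summed syndecan TPM of each library. The ratio is 16.1 to 18.7 in control and 21.3 to 21.6 in oeDAZL, and SDC4 takes 58.0% to 60.4% in control and 64.2% to 65.2% in oeDAZL. The ratio contains the PTN values through which the family was chosen.

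Around these 10 genes, 107 others in 10 lists were counted, of which 98 were tested. They cover further binding partners, receptor relatives, PTPRZ1 substrates, syndecan partners, enzymes of the sugar chains and nucleolar proteins. None of the 98 was called 2-fold higher or lower and 0 had an adjusted p under 0.05 in limma. At an unadjusted P-value under 0.05, 9 were higher and 22 were lower in oeDAZL, to be read against 5.02% and 15.2% of all tested genes.

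Of 16 other proteins reported to bind pleiotrophin or midkine, 13 were tested, with a median log2 fold change of −0.14. At an unadjusted P-value under 0.05 in limma, 2 were higher and 6 lower, against 5.02% and 15.2% of all tested genes. The 2 higher were the integrin subunits ITGB1 (543 and 660 TPM in control, 829 and 788 TPM in oeDAZL) and ITGAV (158 and 220 TPM in control, 276 and 256 TPM in oeDAZL). NRP1, the semaphorin and VEGF co-receptor neuropilin-1, was at 94.6 and 83.6 TPM in control and at 57.5 and 58.3 TPM in oeDAZL. Its log2 fold change of −0.61 ± 0.08 (SE) had an adjusted p = 0.0885 in limma. The heparan sulfate proteoglycan agrin had the lowest adjusted p of the 98 genes, 0.0854 in limma, and is named because its values were seen. AGRN was at 261 and 252 TPM in control and at 185 and 192 TPM in oeDAZL. Of the 3 genes related to ALK, the receptor LTK and the ligand gene ALKAL2 were tested, at 1.58 to 2.15 TPM and 1.46 to 3.07 TPM, and neither had an unadjusted P-value under 0.05 in limma. The ALK ligand gene ALKAL1 was at 0.621 TPM or less.

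The glypicans are the other family of cell-surface heparan sulfate proteoglycans, and all 5 listed were tested, with a median log2 fold change of −0.41. Before adjustment, 1 was higher and 3 were lower at a P-value under 0.05 in limma (5.02% and 15.2% of all tested genes). GPC4 was the higher one, at 75.8 and 103 TPM in control and at 127 and 128 TPM in oeDAZL. GPC3 was at 171 and 124 TPM in control and at 101 and 119 TPM in oeDAZL, and GPC6 was at 31.5 and 29.5 TPM in control and at 18.4 and 22.3 TPM in oeDAZL. The median was −0.18 without control replicate 1 and −0.61 without control replicate 2.

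Of 21 genes of heparan sulfate synthesis and editing, 18 were tested, with −0.22 as the median log2 fold change, where all tested genes had −0.08. At an unadjusted P-value under 0.05 in limma, 0 were higher and 6 lower, against 5.02% and 15.2% of all tested genes. A negative log2 fold change was found for 16 of the 18, against 65.3% of all tested genes. SULF1, which removes 6-O-sulfates from heparan sulfate outside the cell, was at 72.7 and 58.5 TPM in control and at 38.0 and 43.0 TPM in oeDAZL, whereas SULF2 was at 143 and 172 TPM in control and at 143 and 148 TPM in oeDAZL. XYLT2, which starts the chain, was at 33.8 and 30.0 TPM in control and at 22.3 and 21.9 TPM in oeDAZL. Its adjusted p was 0.0896 in limma, as was that of SULF1. NDST1, an N-sulfating enzyme, was at 237 and 228 TPM in control and at 191 and 211 TPM in oeDAZL. The median of the list moved between −0.25 and −0.13 over 13 alternatives, the latter with median-of-ratios scaling and without the filter on TPM.

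Of 16 genes of chondroitin sulfate synthesis, 14 were tested, with −0.08 as the median log2 fold change, equal when rounded to that of all tested genes. Before adjustment, 1 was higher and 3 were lower at a P-value under 0.05 in limma (5.02% and 15.2% of all tested genes). CSGALNACT1, which starts chondroitin chains, was at 17.6 and 19.2 TPM in control and at 26.5 and 24.1 TPM in oeDAZL. The chain-extending CHPF was at 83.0 and 81.6 TPM in control and at 71.4 and 69.1 TPM in oeDAZL, and the uronyl sulfotransferase UST at 5.45 and 5.15 TPM and at 3.74 and 3.56 TPM. CHPF2 was at 35.8 to 39.2 TPM over the 4 libraries.

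Among 9 other receptor tyrosine phosphatases, all tested, 0 had an unadjusted P-value under 0.05 in limma, and the median log2 fold change was −0.05. PTPRF was the most abundant of them, at 343 to 399 TPM, followed by PTPRA at 62.1 to 69.4 TPM. PTPRE had a log2 fold change of 0.26 and PTPRM of 0.19. Of 7 PTPRZ1 substrates, FYN alone was under 0.05 before adjustment, at 55.8 and 66.4 TPM in control and at 83.3 and 72.1 TPM in oeDAZL. Beta-catenin (CTNNB1) was at 630 to 669 TPM and paxillin (PXN) at 184 to 206 TPM, with log2 fold changes of −0.05 and 0.07, and that of ADD2 was −0.23. Of 10 genes related to LRP1, its chaperone included, LRP11 and LRP5 were lower before adjustment, with log2 fold changes of −0.43 and −0.37, and the list median was −0.11. Among all tested genes, 5.02% were higher and 15.2% lower at an unadjusted P-value under 0.05 in limma.

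Of 11 syndecan partners and shedding enzymes, 1 was higher and 2 were lower before adjustment, against 5.02% and 15.2% of all tested genes. The median log2 fold change of this list was −0.03. The protease gene MMP9 was at 22.5 and 24.8 TPM in control and at 31.6 and 36.4 TPM in oeDAZL. Syntenin (SDCBP), which binds the cytoplasmic end of syndecans, was at 230 and 243 TPM in control and at 200 and 208 TPM in oeDAZL, and the membrane protease MMP14 was at 204 to 219 TPM over the 4 libraries. Of 9 nucleolar proteins, 3 were higher and 0 lower before adjustment, against the same 5.02% and 15.2%. Their median log2 fold change was 0.11 beside the 0.21 of NCL. DKC1 and NOLC1 had log2 fold changes of 0.25 and 0.22, and the more abundant NPM1 and FBL had −0.01 each.

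**Figure D5:**
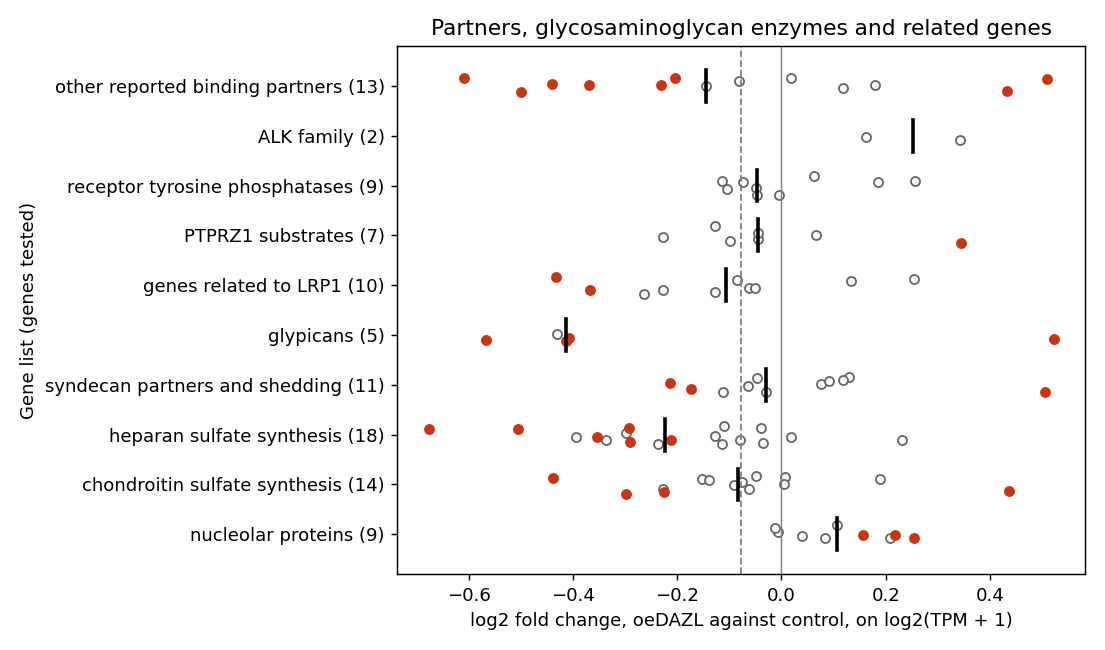
Log2 fold change of oeDAZL against control for the 98 tested genes of 10 lists, with 1 point per gene, red where the unadjusted P-value in limma was under 0.05. Black bars mark list medians and the dashed line the median of all tested genes, −0.08. The median of the glypicans lies at −0.41, that of heparan sulfate synthesis at −0.22 and that of the nucleolar proteins at 0.11.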

How the data were processed

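The authors deposited 1 table of TPM per gene for 2 control and 2 oeDAZL libraries. According to the methods and labels, reads were trimmed with Trim Galore, mapped to hg38 with HISAT2 2.1.0, kept where uniquely mapped and quantified with StringTie 2.1.4. The annotation release is not given in the sources used here. Read numbers cannot be recovered from TPM, so depth is unknown and precision was taken from replicates alone. From 65003 entries, 45 pseudoautosomal copies and 18 repeats were left out. The 16687 genes with a mean of at least 1 TPM were fitted on log2(TPM + 1) with limma 3.58.1 in R 4.3.3 (eBayes with trend, no covariates), since the values are not counts. On simulated data with 200 genes changed by 2 on the log2 scale, 100% of these and 0 unchanged genes were called. Those changes were larger than any in the family, so this does not show how well smaller ones are found. Gene positions, overlaps and 3′UTRs came from GENCODE 44 on hg38. Gene names outside the family follow a rule: of each list, the 2 most abundant tested genes, the 2 with the largest fold change and any called. The 5 profiles nearest to PTN were added. AGRN, ALKAL1, overlapping genes and single marker genes were named after their values were seen. The members, lists and tests were chosen with earlier results of these data known. Alternatives were another pseudocount, filter, scaling and variance model, a replicate block and each library left out. Replicates share numbers, but nothing says that these pair them. The miRNA libraries were not analysed here, and a few genes that the naming rule selects are not reported here.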

Additional observations from a re-analysis of the deposited data

How the results depend on the processing

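Depth is unknown for TPM, and 2 libraries per group limit every statement above. The numbers of genes called higher and lower (21 and 94) became 55 and 267 when the pseudocount was 0.1, fell to 6 and 23 when genes under a mean of 5 TPM were dropped, which left fewer to test, and were 41 and 52 after quantile normalization. The share of lower genes among the calls went from 81.7% to 55.9% with quantile normalization. The 10 genes with an adjusted p under 0.05 in limma became 1 without a filter on TPM or without trend, and 3 with median-of-ratios scaling or quantile normalization. With the replicate number as a block they became 4. The numbers do not show pairing (correlation of deviations −0.10). With 2 libraries per group this value is the same for both pairs by construction. The crossed pairing, added after the data were seen, gave 1089 such genes. With 1 library left out, so that the lone library was assumed to vary like the others, calls ranged from 35 to 87 higher and from 85 to 235 lower, and adjusted calls from 2 to 673, the highest each without control replicate 2. PTN kept its direction in all 13 alternatives, but its adjusted p in limma was above 0.05 with median-of-ratios scaling (log2 fold change −0.66, 0.0731), quantile normalization (−0.74, 0.0644), no filter (−0.76, 0.322), no trend (−0.76, 0.222) and the replicate block (−0.76, 0.112). With 1 library left out its log2 fold change ranged from −0.80 to −0.73. MDK came under 0.05 in the crossed pairing (−0.47, 0.0116 in limma) and without control replicate 2, with log2 fold changes of −0.60 to −0.34 when 1 library was left out. LRP1 and SDC4 also came under it in the crossed pairing (0.0393 and 0.0185 in limma). Median-of-ratios scaling gave smaller falls of MDK (log2 fold change −0.37), LRP1 and SDC3 (−0.15 each). It gave larger rises of NCL (0.31) and SDC4 (0.42). Of the 9 genes tested, SDC1 alone changed sign, to −0.14 without control replicate 1 and −0.04 without oeDAZL replicate 1, and was 0.25 without control replicate 2. The replicate block changed no other call among the family. The medians of the receptor tyrosine phosphatases, PTPRZ1 substrates, syndecan partners and chondroitin sulfate genes lay above 0 in at least 1 alternative and below it in another. The causes were not tested.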
